A study of Mus musculus with 3 samples.

Results

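The comparison set the library of CBP-ablated neurosphere cultures against the control library, gene by gene. Its members were all 3017 nuclei labelled CBPf/f and all 4884 nuclei labelled control, 7901 of the 12549 nuclei deposited; the other 4648 nuclei, labelled p300f/f, are given beside them where they show how far a difference went with CBP. Unique molecular identifiers (UMIs, which count RNA molecules) were summed over the nuclei of a library, divided by the library total and multiplied by 1000000 (CPM) and compared as the log2 ratio of CBP-ablated over control for the 11882 genes with 100 or more UMIs in both libraries together. The comparison was then repeated without the nuclei of an astrocyte gate, those with 3 or more UMIs of the transporters Slc7a11, Slc6a11 and Atp13a4 together and 5 or more UMIs of Gpc5.

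Cultures were grown from the subventricular zone, the stem cell niche beside the lateral ventricles, of newborn C57BL/6 mice. CBPf/f and p300f/f cells carry floxed Crebbp or Ep300 alleles. By the study's account RFP served as the control in cultures from floxed mice, and which of the floxed lines gave the control library is not stated. By the study's methods a lentivirus brought Cre and mCherry to the CBPf/f and p300f/f cultures and RFP alone to the control cultures, while the labels of all 3 samples give tamoxifen as the treatment. Each library is a pool of about 15 cultures, taken at 15 days in vitro, from which nuclei were sorted for the fluorescent reporter and 16000 were loaded. With 1 library a side there was no replicate and no test could be made; 95% intervals cover counting error only, and differences between cultures or runs cannot be told apart from the effect of ablation.

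CBP, encoded by Crebbp, and p300, encoded by Ep300, are the KAT3 lysine acetyltransferases. They are brought to enhancers and promoters by transcription factors such as CREB, acetylate histones there and help to start transcription. Neural stem cells of the subventricular zone give rise to neurons, to astrocytes, which take up glutamate and GABA and buffer potassium, and to oligodendrocyte precursor cells (OPCs), which mature in steps into the myelin-forming oligodendrocytes.

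The libraries held 16312062 UMIs in control, 12748307 in CBP-ablated and 18876666 in p300-ablated nuclei, and the median nucleus held 3219, 4016 and 3902.5 UMIs. The features counted include 3 sequences of the lentiviral vectors, which check the labels. The RFP vector had 108 UMIs in 92 control nuclei and 0 in either ablated library. The 2 Cre features together had 29 UMIs in 18 CBP-ablated nuclei and 16 UMIs in 15 p300-ablated nuclei, and 0 in the control. They are seen in 1.88% of control nuclei and 0.597% of CBP-ablated nuclei, so they say which libraries had received Cre but not which nuclei, nor which of the floxed genes was cut. Crebbp itself had 335 CPM in control, 370 in CBP-ablated and 365 in p300-ablated nuclei, a log2 ratio of 0.14 (95% interval 0.09 to 0.20). UMIs were summed over exons and introns of the whole locus, so this level does not check a deletion within the gene. Ep300 was at 114 CPM in control and 136 in CBP-ablated nuclei (log2 ratio 0.26, interval 0.16 to 0.35). None of the 20 ranked acetyltransferases, CREB family members and coactivators reached a 2-fold difference, and their ratios ran from −0.43 for Ncoa1 to 0.46 for Crtc2. The control and CBP-ablated matrices had 3 cell barcodes in common.

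Most genes stood near their control level. The log2 ratio was within 0.5 of zero for 77.2% of the ranked genes, around a median of 0.06. A 2-fold or larger difference was found for 344 genes that were higher in the CBP-ablated library, 2.9% of those ranked, and for 473 that were lower, 3.98%. The whole counting interval lay past 2-fold for 199 and 245 of these. At 4-fold there were 33 higher and 70 lower genes, and at 8-fold 1 and 13. The counts depend on the minimum of UMIs, and at 300 or more they were 227 higher and 281 lower. Of the 130 genes just inside the minimum, with 100 to 104 UMIs, 9.23% were past 2-fold in either direction, and of the 135 just outside, with 95 to 99 UMIs, 11.9%, with median ratios of 0.04 and −0.01. In sums over whole libraries, fewer cells of a type and less RNA per cell cannot be told apart.

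**Figure D1:**
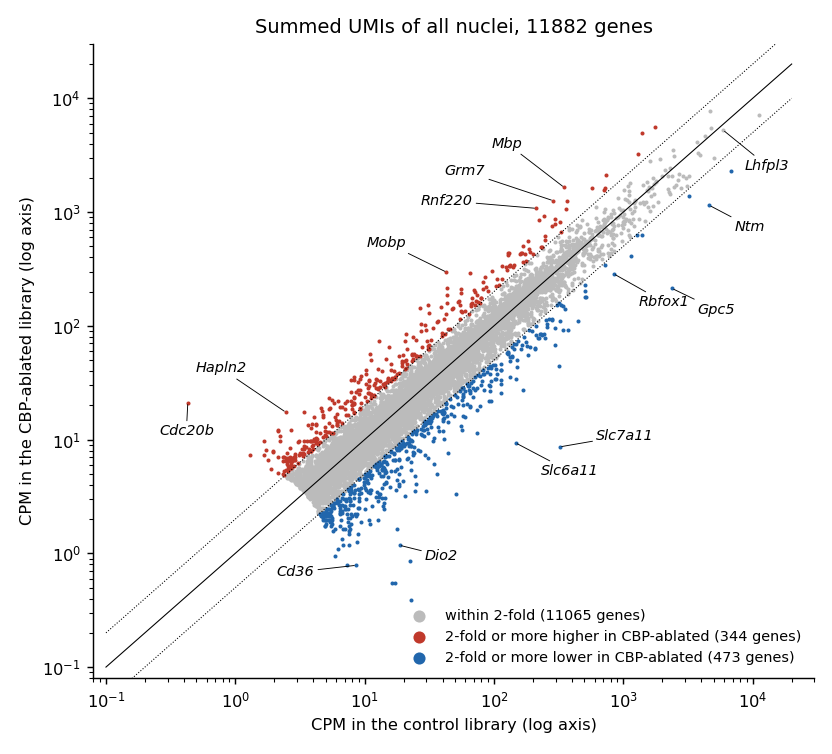
Level of each of the 11882 ranked genes in the control (horizontal) and CBP-ablated library (vertical), as CPM on log axes, with 1 point a gene; the solid line marks equal levels and the dotted lines a 2-fold difference. The 344 higher genes (red) include Cdc20b, Mobp, Mbp and Rnf220, and the 473 lower genes (blue) include Slc7a11, Gpc5, Ntm and Rbfox1.

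Genes of astrocytes were among the lowest ratios, including Slc7a11, Slc6a11, Gpc5 and Atp13a4 of the gate. Slc7a11, the cystine/glutamate exchanger that supplies cystine for glutathione (chromosome 3, 49892526 to 50443614 on GRCm38), had 324 CPM in control, 8.63 in CBP-ablated and 10.3 in p300-ablated nuclei, a log2 ratio of −5.23 (interval −5.51 to −4.96). Slc6a11, the GABA transporter GAT3, had 147, 9.33 and 11.6 CPM (−3.98). Both ablated libraries were thus low for these transporters. Gpc5, a glypican that carries heparan sulfate chains (chromosome 14, 115092215 to 116525179), was split differently, at 2382 CPM in control, 213 in CBP-ablated and 922 in p300-ablated nuclei, with ratios of −3.49 (−3.54 to −3.43) and −1.37. Dio2, the deiodinase with which astrocytes activate thyroid hormone, had 304 UMIs in control, 15 in CBP-ablated and 30 in p300-ablated nuclei (−3.99), and the channel Trpm3 had 316, 43.9 and 80.6 CPM (−2.85). Some of the lowest genes are not astrocyte markers of textbooks. Slc25a34, a mitochondrial carrier, had 280, 7 and 11 UMIs (−4.97), Proc, which encodes protein C of the clotting system, had 264, 7 and 8 UMIs (−4.88), and the matrix protein gene Svep1 had 365, 11 and 38 UMIs (−4.70). The fatty acid receptor Cd36 (140, 10 and 38 UMIs, −3.45) and the histamine receptor Hrh1 (487, 45 and 281 UMIs, −3.08) were also among the 15 lowest. So were Tmem229a (−3.43), Atp13a4 (−2.87) and the zinc finger gene Zfp981.

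The lowest ratio of all belonged to a predicted gene that was not low with p300 ablated. Gm16867, on chromosome 14, had 374 UMIs in control, 5 in CBP-ablated and 664 in p300-ablated nuclei (−5.87, interval −7.50 to −4.63). Zfp981 had 119, 10 and 99 UMIs (−3.22). Against the same control neither came near a 2-fold difference downwards with p300 ablated. Gm2115, the other predicted locus among the 15 lowest, was low in both ablated libraries, with 825, 42 and 211 UMIs (−3.94 and −2.18). Whether near-identical copies take part of the reads of these genes was not tested. Predicted loci made up 2 of the 15 lowest and 3 of the 15 highest genes.

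Genes of astrocyte uptake and transport were lower as a group. Of the 20 ranked, 11 were 2-fold or more lower and 0 were higher, with a median log2 ratio of −1.10 against 0.06 for all ranked genes. The glutamate transporter Slc1a2 (GLT-1) had 298 CPM in control, 67.7 in CBP-ablated and 153 in p300-ablated nuclei (−2.14), and its relative Slc1a3 (GLAST) had 715, 346 and 459 (−1.05). The sodium bicarbonate cotransporter Slc4a4 had 1382, 623 and 694 (−1.15). The glutamate receptor Grm3 of astrocytes had 95.3, 21.7 and 20.7 CPM (−2.13). The control stood highest for each of these genes. The water channel Aqp4 did not share this, at 113 CPM in control, 125 in CBP-ablated and 124 in p300-ablated nuclei (0.14, interval 0.04 to 0.23), nor did the potassium channel Kcnj10, at 85.8, 87.5 and 105 CPM (0.03).

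The structural and secreted astrocyte genes were divided in the same way. Of 21 ranked, 7 were 2-fold or more lower and 0 higher, with a median of −0.78. The adhesion protein gene Ntm (neurotrimin) had 4625 CPM in control, 1144 in CBP-ablated and 1766 in p300-ablated nuclei (−2.02), and the lipid carrier Apoe had 342, 91.5 and 87.6 CPM (−1.90). Sparcl1 (−2.13), the folate enzyme Aldh1l1 (−1.62), Acsbg1 (−1.54) and Fabp7 (−1.22) were low as well. In contrast, Gfap, the intermediate filament by which astrocytes are usually stained, had 83.9 CPM in control, 152 in CBP-ablated and 86.7 in p300-ablated nuclei, a log2 ratio of 0.86 (0.76 to 0.96). S100b had 21.0, 28.8 and 15.0 CPM (0.46), and Sparc had 22.7, 43.7 and 30.0 CPM (0.95), while Vim (0.13) and Cd44 (0.21) stood near their control level. The astrocyte genes thus did not move together. Both lists held genes that were 2-fold lower, while Gfap, S100b and Sparc stood above the control. By the study's account GFAP staining and the proportion of S100β-positive cells were reduced in both ablated cultures. Those are measures of protein, and the values here are of nuclear RNA.

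**Figure D2:**
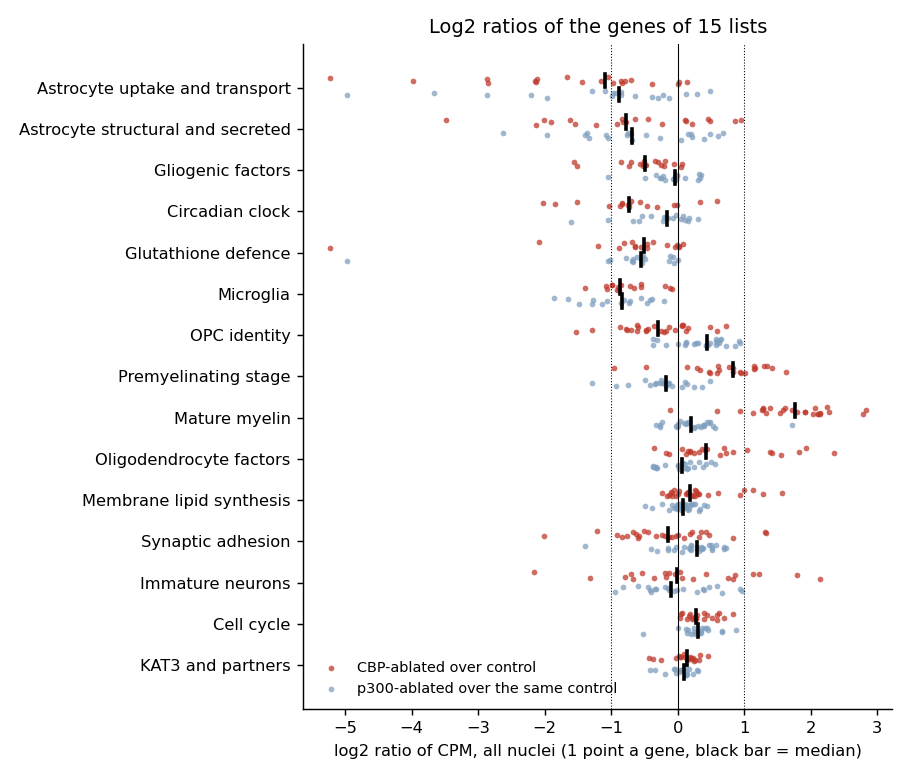
Log2 ratios of the ranked genes of 15 gene lists in all nuclei, with 1 point a gene, for CBP-ablated (red) and p300-ablated (blue) over the same control library; black bars mark medians and dotted lines a 2-fold difference. In the CBP-ablated library the medians run from −1.10 for astrocyte uptake and transport to 1.76 for mature myelin, and the p300-ablated median of the myelin list is 0.20.

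The astrocyte gate held 899 control nuclei, or 18.4% (exact binomial interval 17.3 to 19.5), against 4 CBP-ablated nuclei, or 0.133%, and 10 p300-ablated nuclei. The gate genes are themselves among the lowest ratios of the first comparison. A small CBP-ablated share was thus largely fixed beforehand, and it is a description, not a separate count of astrocytes. After thinning to 1500 UMIs, 3 or more UMIs of the astrocyte uptake list were still found in 31.9% of CBP-ablated nuclei, against 58.7% of control nuclei. At its edge, 151 control nuclei and 1 CBP-ablated nucleus entered with exactly 3 transporter UMIs, and 183 and 7 stayed out with 2. Without the gated nuclei 11566 genes were ranked, of which 249 were 2-fold or more higher (2.15%) and 331 lower (2.86%). Of the 344 higher genes, 244 stayed past 2-fold, whereas 270 of the 473 lower genes did; a further 58 of the lower genes fell under the minimum of UMIs, and 61 genes were past 2-fold downwards in the repeat only. No gene past 2-fold and still ranked changed sign. The gated nuclei held 18.3% of control and 0.165% of CBP-ablated UMIs, so the repeat shares most of its UMIs with the first comparison. Their removal also took far more from the control total than from the CBP-ablated one. A gene absent from gated nuclei therefore has a lower ratio in the repeat by arithmetic alone. The part of this shift in the changes between the 2 comparisons was not tested. The 4 gate genes are no result of the repeat, since their own UMIs chose the nuclei, but they are among the 331 lower genes. Several genes named elsewhere as 2-fold different in all nuclei fell short of it in the repeat. On the higher side these were Bcas1, Enpp6, Bmp4, Bmp6, Zfp488, Ugt8a, Hs3st1, Gpr149, Dlx6os1, Celf4 and Adra1b, with ratios from 0.77 for Bmp6 to 0.99 for Dlx6os1. On the lower side they were Slc1a3, Slc4a4, Bmpr1b, Lifr, Gstm1, Sesn2, Cdkn1a, Dbp and Fth1, from −0.58 for Slc4a4 to −0.92 for Lifr.

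Many lower genes were therefore low outside the gate too. The gate is a cut on raw UMIs, so astrocyte nuclei that fall under it stay in the repeat. Their part in the values below was not tested. Proc kept 116 UMIs in the remaining control nuclei against 7 in the CBP-ablated ones (−3.98 in the repeat), Slc25a34 kept 111 against 7 (−3.92) and Svep1 kept 153 against 11 (−3.73). Cd36 hardly moved (−3.43, with 113 and 10 UMIs), nor did Gm16867 (−5.70). In the whole control library Cd36 was found in only 72 nuclei, with up to 30 UMIs in 1 nucleus. Slc1a2 had a ratio of −1.68 in the repeat, Grm3 of −1.38, Ntm of −1.41 and Apoe of −1.37. Other differences were smaller in the repeat: Slc4a4 moved from −1.15 to −0.58, the gap junction gene Gja1 from −0.85 to −0.37 and Fgfr3 from −0.78 to −0.31. Over the uptake list the median moved from −1.10 to −0.67, with 8 of 19 genes still 2-fold lower, 3 of which are the transporters of the gate. Gfap was at 0.94 in the repeat.

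**Figure D3:**
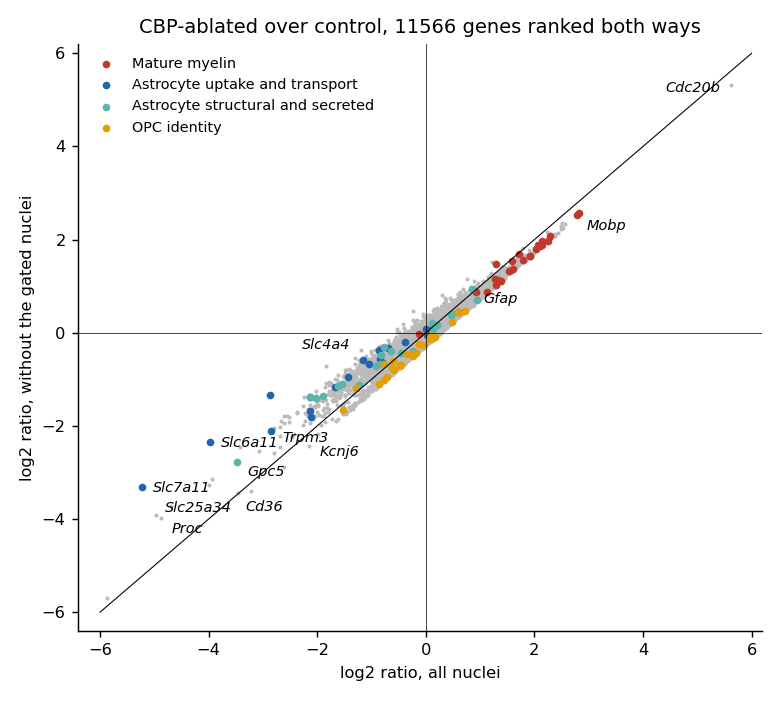
Log2 ratio of CBP-ablated over control in all nuclei (horizontal) and without the gated nuclei (vertical), with 1 point a gene and the line of equal ratios. Myelin genes (red) stay close to the line, Slc7a11 and Slc6a11 (blue), which took part in the gate, lie far above it, and Cd36 lies on it at about −3.4.

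The transcription factors and signals that drive gliogenesis differed less. Of 19 ranked gliogenic factors 17 had a ratio below zero (median −0.49), but only 2 were 2-fold lower, the homeobox gene Emx2 (109 UMIs in control, 29 in CBP-ablated and 105 in p300-ablated nuclei, −1.55) and the nuclear receptor Rorb (514, 180 and 249 CPM, −1.51). Nfia, a main switch of astrocyte fate, had 1560, 1114 and 1544 CPM (−0.49), Nfib was at −0.51, and Sox9 had 36.6, 28.9 and 26.1 CPM (−0.34). For the STAT3 and BMP pathways the 25 ranked genes had a median of −0.06, with 3 higher and 3 lower. Bmp7 had 301 UMIs in control, 64 in CBP-ablated and 416 in p300-ablated nuclei (−1.88), the receptor Bmpr1b had 256, 103 and 119 CPM (−1.31), and the LIF receptor Lifr had 83.1, 37.3 and 60.1 CPM (−1.15). Smad7, which inhibits the pathway, was on the other side with 47.4, 140 and 52.6 CPM (1.56), along with Bmp4 (1.15) and Bmp6 (1.01). In the repeat only Smad7 (1.37) was 2-fold higher and only Bmp7 (−1.78) was 2-fold lower. Stat3 itself was at −0.03 and Smad4 at 0.08.

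Egfr, the receptor of activated stem cells and early glial precursors, was the lowest of the radial glia and progenitor list, at 373 CPM in control, 91.5 in CBP-ablated and 113 in p300-ablated nuclei (−2.03). The list as a whole had a median of −0.17, with 3 of 26 genes lower and 2 higher. Beside Egfr the lower genes were Slc1a3 and Fabp7, which the astrocyte lists also hold. After thinning, Egfr was found in 30.2% of control nuclei and 61.3% of gated control nuclei. In the repeat 2 of 25 genes of the list were lower and 1 was higher, and the lowest ratio was −1.54. In the Notch pathway the ligand Jag1 (240, 53 and 202 UMIs, −1.82) was the only one of 20 ranked genes past 2-fold. The 18 ranked genes of glutathione synthesis and antioxidant defence had a median of −0.51. Beside Slc7a11, haem oxygenase Hmox1 (375, 69 and 210 UMIs, −2.09) and the transferase Gstm1 (370, 126 and 268 UMIs, −1.20) were 2-fold lower. The ferritin chain Fth1 was lower too (66.9, 31.5 and 21.1 CPM, −1.09).

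On the other side stood the genes of myelin. Of 26 ranked mature myelin genes 23 were 2-fold or more higher in the CBP-ablated library and 0 were lower, with a median of 1.76. Mbp, myelin basic protein, had 347 CPM in control, 1651 in CBP-ablated and 410 in p300-ablated nuclei, a log2 ratio of 2.25 (2.21 to 2.29). Mobp had 42.8, 297 and 59.8 CPM (2.79), Mag had 65.7, 289 and 70.1 (2.14), and Mog had 55.2, 209 and 54.2 (1.92). The tight junction gene Cldn11 of the myelin sheath had 43.0, 186 and 42.6 CPM (2.11). Hapln2, a link protein of the matrix at nodes of Ranvier, was also higher with p300 ablated, with 40 UMIs in control, 222 in CBP-ablated and 153 in p300-ablated nuclei (2.83 and 1.72). For the other genes named here the p300-ablated library stood near the control, and its median over the list was 0.20. Cryab (−0.12), Anln (0.58) and Qdpr (0.93) were the 3 genes of the list that did not reach 2-fold. In the repeat 22 of 26 were higher, with a median of 1.60.

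Genes of the stage before myelination were higher by less. Of 23 ranked, 8 were 2-fold or more higher and 0 lower (median 0.83), and in the repeat 4 were higher (median 0.78). Bcas1, which marks oligodendrocytes as they form, had 707 CPM in control, 1572 in CBP-ablated and 667 in p300-ablated nuclei (1.15), and Enpp6 had 72.8, 164 and 43.4 (1.17). The zinc transporter Tmem163 was at 1.30 and Prom1 at 1.63, while Fyn (0.30) and Itpr2 (0.48) differed little and Kif21b was below control (−0.96). The long non-coding RNA 9630013A20Rik had 164, 440 and 67.0 CPM (1.43), so it was higher than control with CBP ablated and lower with p300 ablated.

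Among 24 ranked transcription factors and other regulators of the lineage 7 were 2-fold higher and 0 lower (median 0.42). Among them, Myrf, the master regulator of myelin genes, had 335 UMIs in control, 931 in CBP-ablated and 308 in p300-ablated nuclei (1.83), Zfp536 had 225, 858 and 281 CPM (1.93), St18 had 360, 1053 and 378 CPM (1.55), and Nkx6-2 (1.39), Nfe2l3 (1.42) and Zfp488 (1.04) followed. Rnf220, a ubiquitin ligase, had 212, 1077 and 299 CPM (2.35), and the predicted antisense gene Gm12828 inside its locus had 27, 125 and 37 UMIs (2.57), which cannot be told apart from reads of Rnf220 without knowing how strand was treated. Of the factors that define the whole lineage, Olig2 had 55.2, 50.3 and 65.3 CPM (−0.13) and Olig1 a ratio of −0.35, while Sox10 was above control at 183, 304 and 246 CPM (0.73). Of 30 genes of membrane lipid synthesis, 3 were 2-fold higher. These were the galactolipid enzymes Ugt8a (1.13) and Fa2h (1.28) and the fatty acid elongase Elovl7 (1.57). Without gated nuclei and all nuclei with 3 or more UMIs of the mature myelin list Ugt8a stood at −0.35. Both galactolipid enzymes are on that list. Their own UMIs thus helped to choose the nuclei left out, and no conclusion is drawn from this value. Cholesterol synthesis stood at control level, with Sqle at 0.21 and Hmgcs1 at −0.11.

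OPC genes stood mostly at or below their control level. Their 26 ranked members had a median of −0.30 in the CBP-ablated library, with 18 below zero and 2 of them 2-fold lower. The other 8 were above zero, by at most 0.73. The p300-ablated library had a median of 0.44 against the same control. The proteoglycan Cspg4 (NG2) had 67.4 CPM in control, 37.1 in CBP-ablated and 122 in p300-ablated nuclei (−0.86 and 0.86), and Cspg5 had 176, 72.2 and 191 CPM (−1.29). The calcium channel subunit Cacng4 had 286, 175 and 551 CPM (−0.71). Pdgfra, the growth factor receptor of OPCs, had 236, 199 and 448 CPM (−0.24, interval −0.32 to −0.17). Without the gated nuclei the median was −0.49 and 4 genes were 2-fold lower, Cspg4 (−1.11) and Sema3d (−1.02) among them. The smaller control total of the repeat lowers ratios by itself.

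To compare nuclei rather than sums, each nucleus was thinned to 1500 UMIs, which kept 4636 control, 2922 CBP-ablated and 4513 p300-ablated nuclei and left out 248, 95 and 135 shallower ones. Nuclei with 3 or more UMIs of the mature myelin list made up 26.5% of control (exact interval 25.2 to 27.8), 52.3% of CBP-ablated (50.5 to 54.2) and 31.4% of p300-ablated nuclei. In gated control nuclei the share was 8.36%. Car2, a gene of the list, was found in 7.58% of gated and 3.86% of all control nuclei, so the list does not single out oligodendrocytes. At the deposited depth the shares were 46.2%, 77.3% and 59.2%. For the astrocyte uptake list the shares were 58.7% (57.3 to 60.2), 31.9% (30.2 to 33.6) and 42.7%. It was 6.73% in 223 control nuclei chosen by a smaller set of 8 myelin genes, which is described below. The OPC list was found in 98.2% of control and 96.0% of CBP-ablated nuclei and in 99.7% of gated control nuclei, so this share says nothing of OPCs. The premyelinating list was in 71.9%, 82.4% and 70.5% of nuclei, and in 76.9% of gated control nuclei, which is above the share of all control nuclei.

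**Figure D4:**
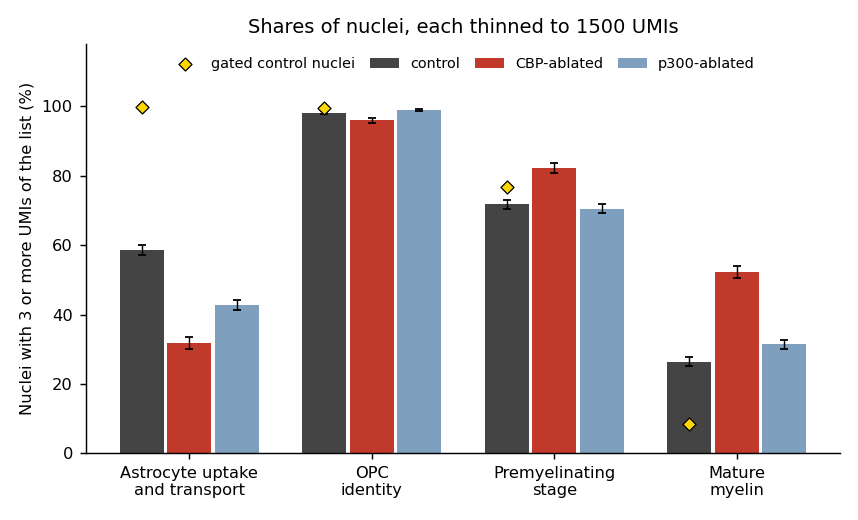
Percent of nuclei with 3 or more UMIs of a gene list after each nucleus was thinned to 1500 UMIs, with exact binomial 95% intervals that cover counting error only; diamonds give the share in gated control nuclei. The mature myelin list is found in 26.5% of control and 52.3% of CBP-ablated nuclei, and the OPC list in almost all nuclei of any kind.

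A set of 8 genes that are more particular to mature oligodendrocytes (Mag, Mog, Mobp, Cldn11, Opalin, Mal, Ermn and Aspa, chosen after the sums were seen) gave clearer shares. After thinning, 3.13% of control nuclei (2.65 to 3.67), 15.4% of CBP-ablated nuclei (14.1 to 16.8) and 3.52% of p300-ablated nuclei had 3 or more of their UMIs, and 0 of 897 gated control nuclei did. At full depth these were 224 control and 680 CBP-ablated nuclei, the myelin nuclei in what follows, less 1 control nucleus that was also in the gate. They were deeper than the other nuclei, with medians of 5226 and 5706 UMIs against 3171 and 3677. No doublet caller was run, and the part of doublets in them was not tested.

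Within the myelin nuclei most of the higher genes had ratios near zero. These nuclei were chosen by 8 of the higher genes, which bears on the level of any gene found in the same nuclei, so the values there are a description. Of the 344 genes, 247 had 100 or more UMIs there, and their median log2 ratio was 0.09, against 1.39 for the same genes over all nuclei and 0.10 for all 5904 genes ranked in myelin nuclei. Of the 247, 10 were past 2-fold, 146 were above zero and 101 below. Mbp, which did not take part in choosing these nuclei, had 4035 CPM in control and 4720 in CBP-ablated myelin nuclei (0.23), Zfp536 had 2658 and 2562 (−0.05), St18 had 3558 and 2866 (−0.31), and Rnf220 had 2510 and 3267 (0.38).

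Outside both the gate and the myelin nuclei, 3762 control and 2333 CBP-ablated nuclei were left. Of 241 higher genes ranked there 101 were past 2-fold, with a median of 0.89, and 9 had the opposite sign; of 408 lower genes 160 were past 2-fold, with a median of −0.90, and 0 had the opposite sign. The lower genes counted here include the 4 of the gate. All these genes were picked by their ratio over all nuclei. The nuclei left held 74.4% of control and 68.6% of CBP-ablated UMIs, so the shared signs were largely fixed beforehand and are a description. Over all 10962 genes ranked in these nuclei the median was 0.10, and 1.24% were 2-fold higher and 1.62% lower. The cut that chose the myelin nuclei is on raw UMIs, so oligodendrocyte nuclei that fall under it stay among the nuclei left. Their part in the values below was not tested. Mbp had 64.8 CPM in control and 258 in CBP-ablated nuclei here (1.99), and Bcas1 had 718 and 1352 (0.91). Egfr had 289 and 126 (−1.19), Ntm had 3279 and 1566 (−1.07) and Gfap had 86.2 and 206 (1.26).

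**Figure D5:**
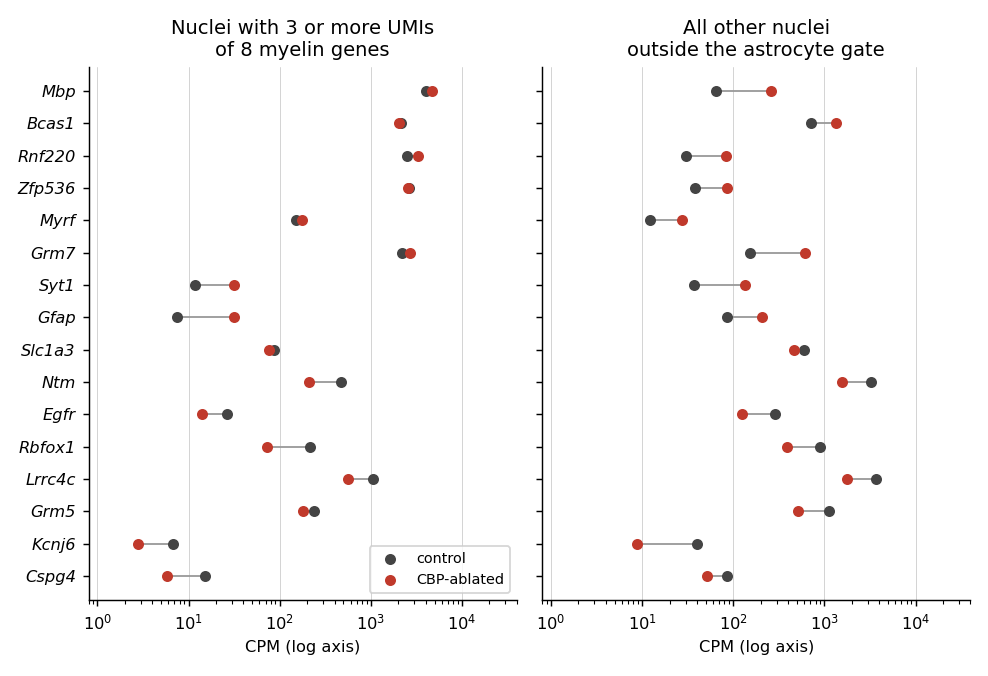
Level of 16 genes as CPM on a log axis in myelin nuclei (left, 3 or more UMIs of 8 myelin genes) and in all other nuclei outside the astrocyte gate (right), in control (grey) and CBP-ablated (red) nuclei. In myelin nuclei Mbp, Bcas1, Zfp536 and Myrf lie close together in both libraries, while Rbfox1 and Lrrc4c are lower in CBP-ablated nuclei in both panels.

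Genes of the neuron and immature neuron lists moved in both directions. Kcnj6, the potassium channel GIRK2, had 502 UMIs in control, 88 in CBP-ablated and 918 in p300-ablated nuclei (−2.16, interval −2.50 to −1.83), and −2.42 in the repeat. Rbfox1, a splicing factor of neurons, had 843, 286 and 934 CPM (−1.56 in all nuclei and in the repeat), and it was low in myelin nuclei (−1.56) as well as in the remaining nuclei (−1.24). Grm7, a presynaptic metabotropic glutamate receptor, was higher, at 286, 1259 and 210 CPM (2.14, interval 2.09 to 2.19). In myelin nuclei it had 2221 and 2685 CPM (0.27), and in the remaining nuclei 151 and 614 (2.02). The limits given above for the remaining nuclei, oligodendrocyte nuclei under the cut among them, hold for all values of those nuclei given here. Syt1, the calcium sensor of vesicle release, had 481, 1299 and 680 UMIs (1.79), and it was higher in the remaining nuclei (1.85). Insyn2b was low (−1.31), and Gpr149 (1.14), Dlx6os1 (1.22) and the RNA-binding protein gene Celf4 (1.12) were high. These genes shared no direction, and the medians were 0.00 for 22 genes of the immature neuron list and −0.06 for 19 of the neuron list. After thinning, 3 or more UMIs of the neuron list were found in 74.6% of control nuclei. In gated control nuclei it was 66.9% and in control myelin nuclei 77.6%, so the list does not single out neurons. For the immature neuron list these shares were 60.8%, 30.8% and 42.2%.

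Receptors and adhesion molecules gave a like picture. Among 21 ranked glutamate receptor genes Grm5 was low (1149, 411 and 1004 CPM, −1.48) with Grm3, and the NMDA receptor subunit Grin2a was high (176, 415 and 277 UMIs, 1.59) with Grm7. Only 5 receptors for amines and acetylcholine were ranked. Adra1a (95.2, 32.5 and 63.4 CPM, −1.55), Chrm2 (174, 62 and 436 UMIs, −1.13) and Chrm3 (−1.05) were lower, and Adra1b (1.09) was higher. The 29 synaptic adhesion genes had a median of −0.14, with Ntm and the netrin-G ligand Lrrc4c (3236, 1392 and 3694 CPM, −1.22) 2-fold lower and the contactins Cntn2 (1.31) and Cntn3 (1.33) 2-fold higher; without gated nuclei and nuclei of the mature myelin list Cntn3 stood at −0.21. Of 31 guidance genes 5 were higher, such as the semaphorin Sema6a (298, 789 and 336 CPM, 1.41) and the plexin Plxnb3 (48.4, 143 and 52.5 CPM, 1.56), and 2 were lower, the receptor Nrp1 (−1.43) and netrin Ntn1 (185, 90.9 and 283 CPM, −1.02).

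Heparan sulfate genes were split as well, with 5 of 27 lower, 2 higher and a median of −0.01. Beside Gpc5, the sulfatase Sulf1 (52.4, 20.7 and 48.4 CPM, −1.34), the sulfotransferase Ndst3 (68.5, 28.6 and 139 CPM, −1.26) and the syndecan Sdc3 (−1.06) were lower, and Ndst4 (88, 240 and 133 UMIs, 1.80) and Hs3st1 (1.16) were higher. The paired enzymes Ndst3 and Ndst4, which start sulfation of the chain, thus stood on opposite sides. Ndst3 was 2-fold lower with CBP ablated and 2-fold higher with p300 ablated (1.02), against the same control.

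The clock genes were low as a group, with 16 of 18 ranked genes below zero and a median of −0.73, whereas the p300-ablated library had a median of −0.16. Npas2 (73.4, 18.1 and 24.2 CPM, −2.02), Hlf (57.5, 16.1 and 38.6 CPM, −1.84), Rorb and Dbp (128, 49 and 102 UMIs, −1.03) were past 2-fold. Arntl, which encodes BMAL1, was at −0.73 and its target Nr1d2 at −0.87. In the repeat the median was −0.54 and 3 of 16 genes were 2-fold lower. Within the control library, after thinning, 3 or more UMIs of the list were found in 93.5% of gated nuclei but 16.1% of myelin nuclei. The part of these kinds of nuclei in the clock result was not tested. The clock phase at which the cultures were taken is not given in the sources used here.

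The highest ratio of all belonged to Cdc20b (chromosome 13, 113035111 to 113091195), whose locus serves the formation of motile cilia, with 7 UMIs in control, 268 in CBP-ablated and 208 in p300-ablated nuclei (5.61, interval 4.55 to 6.94). Nearly all of this came from a few nuclei. Of the 268 UMIs, 242 were in 15 CBP-ablated nuclei (0.497%, exact interval 0.279 to 0.819) with 2 or more Cdc20b UMIs, beside 10 p300-ablated nuclei and 0 control nuclei. With 0 of 4884 control nuclei, counting error allows a share of nuclei with 2 or more Cdc20b UMIs of up to 0.0614% by a floor of 3 nuclei, or 0.0755% by the exact interval. The CBP-ablated nuclei with Cdc20b also stood above all others for Mcidas, the switch of multiciliated cells (461 CPM against 0.315). The same held for Wdr63 (769 against 3.78), Ak7 (855 against 10.0) and the dynein Dnah12 (479 against 6.07). These are levels, and of the 93 Wdr63 UMIs of the CBP-ablated library 45 were in these nuclei. The nuclei were chosen by Cdc20b after its value was seen, and their leading genes are a description. Over whole libraries Wdr63 had 21, 93 and 93 UMIs (2.50). Of 17 ranked ependymal and choroid genes 4 were 2-fold higher, Ak7 (1.40), Dnah12 (1.34), Dnah6 (1.33) and Cfap299 (1.14). The list as a whole differed little, with 5 of the 17 genes below zero and a median of 0.25. Its summed level was 627 CPM in control, 632 in CBP-ablated and 727 in p300-ablated nuclei, and the p300-ablated median was 0.66.

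Several of the other genes with the highest ratios have known roles outside myelin. The part of oligodendrocyte nuclei in their ratios was not tested. Tnni1, a troponin of slow muscle, had 12.8 CPM in control, 74.2 in CBP-ablated and 10.1 in p300-ablated nuclei (2.53), and Adssl1, a muscle form of a purine synthesis enzyme, had 35, 154 and 70 UMIs (2.49). The claudin Cldn14 had 26.9, 145 and 54.4 CPM (2.43), the spindle orientation adaptor Insc had 179, 726 and 325 UMIs (2.38), and the mechanosensitive channel Piezo2 had 31.0, 154 and 41.9 CPM (2.31). Kndc1 was at 2.31, Gm32531 at 2.38 and Ermn, a cytoskeletal protein of myelin, at 2.28. Smooth muscle actin Acta2 entered the highest 15 in the repeat, with 24 control and 103 CBP-ablated UMIs (2.17). Of the vascular and stromal list only 5 of 19 genes were ranked, while the endothelial markers Cldn5 and Cdh5 had 0 UMIs in control. In the repeat the 15 lowest genes included Gpnmb, a glycoprotein of phagocytes (401 and 52 UMIs, −2.88), the GTPase Gem (86 and 15 UMIs, −2.45) and Gm46123 (−2.59). Gpnmb was found in only 81 nuclei of the whole control library, with up to 66 UMIs in 1 nucleus.

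As CBP is a partner of CREB, the promoters of the ranked genes were searched for the full cAMP response element TGACGTCA, which reads the same on both strands. Promoters were windows from 250 bases before to 50 after the start site, from RefSeq on GRCm38.p6. They were at hand for 9222 ranked genes, and 3.62% of these held the element, against 3.63% of 248 higher genes (9 genes) and 2.69% of 335 lower genes (9 genes). The shares thus lay close together, and a match is a description of letters, not of binding. The genes past 2-fold with the element include some of those above. The stretches around it are shown for 3 lower and 3 higher genes on the strand of the gene, with the element in capitals.
Dio2, chr12:90739110-90739149, minus strand: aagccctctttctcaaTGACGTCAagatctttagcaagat
Hlf, chr11:90390918-90390942, minus strand: cgcgcggtgcgggcccTGACGTCAc
Plk2, chr13:110394966-110395005, plus strand: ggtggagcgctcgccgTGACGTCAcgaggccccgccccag
Wdr63, chr3:146108177-146108216, minus strand: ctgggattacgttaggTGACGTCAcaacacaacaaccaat
Hhip, chr8:80058060-80058099, minus strand: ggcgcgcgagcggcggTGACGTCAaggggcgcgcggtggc
Mcam, chr9:44134613-44134652, plus strand: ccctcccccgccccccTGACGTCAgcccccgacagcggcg
The polo-like kinase Plk2 had 302 UMIs in control, 103 in CBP-ablated and 249 in p300-ablated nuclei (−1.20). The hedgehog inhibitor Hhip had 136, 449 and 143 UMIs (2.08) and the adhesion molecule Mcam 129, 423 and 188 (2.07). The same element of Mcam lies in the promoter of the antisense gene Gm10687, which was among the 15 highest (35, 153 and 54 UMIs, 2.48), and the strand treatment leaves the reads of this pair uncertain. The immediate early genes, which CREB is known to drive, had no member past 2-fold among 12 ranked, with a median of −0.33 for CBP and 0.43 for p300 over the same control. Fos had 393 UMIs in control (−0.50) and Nr4a1 had 202 (−0.56).

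Genes of other programs differed less, or went with particular cell types. The 21 ranked cell cycle genes were all above zero by at most 0.83, with a median of 0.28 and 0 past 2-fold, and in the repeat the median was 0.08. Of 21 ranked p53 target genes Cdkn1a (−1.11), Sesn2 (−1.02), Tnfrsf10b (−1.25) and Plk2 were 2-fold lower and Plk3 (1.21) higher; in the repeat only Plk2 (−1.12) was 2-fold lower among 20 ranked, Tnfrsf10b having fallen under the minimum of UMIs. Microglia genes were low, with 16 of 16 ranked genes below zero, a median of −0.87 and a summed level of 425 CPM in control, 241 in CBP-ablated and 251 in p300-ablated nuclei; Inpp5d (375, 112 and 139 UMIs, −1.39), Dock8 (−1.08) and Dock2 (−1.06) were past 2-fold. In the repeat 8 of the 16 were 2-fold lower, with a median of −1.03, where the smaller control total lowers ratios by itself. The part of microglia in the differences of Cd36, Gpnmb and Apoe, which they also express, was not tested. Of the extracellular matrix list, Hapln2 and the collagen Col25a1 (1.05) were 2-fold higher among 21 ranked. Xist was at 0.65 and the Y-linked Uty, Ddx3y, Eif2s3y and Kdm5d at −0.62, −0.56, −0.25 and −0.16, so the pooled cultures differed in the share of female cells or in the level of these genes, which cannot be told apart. Chromosome medians lay between 0.02 and 0.09 on the autosomes and X. The lower genes were most frequent on chromosome 6 (7.28% of 604 ranked genes), and of 5 classes of equal size by gene length the longest, of 98.9 kb or more, held more genes past 2-fold in each direction (5.09% higher and 5.30% lower) than the shortest (2.23% and 3.83%). Of the RNA quality list of mitochondrial, ribosomal and long nuclear RNAs, only Fth1 among 16 was past 2-fold, and Malat1 was at −0.14.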

How the data were processed

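Single-nucleus RNA of 1 control, 1 CBP-ablated and 1 p300-ablated library was measured with the 10x Genomics 3′ kit. The authors aligned reads to GRCm38 with Cell Ranger 3.1, over exons and introns, and deposited raw UMI counts per gene and nucleus without normalization; how strand was treated is not given in the sources used here. All deposited nuclei (500 UMIs or more) and 30556 genes were kept, and the 3 vector features stayed out of totals and ranks. Groups follow the genotype labels.

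Counts were summed per library and divided by the library total (CPM) in Python 3.11.15, through pandas 2.3.3, numpy 2.4.6 and scipy 1.17.1. Intervals of ratios are exact binomial intervals of the split of UMIs at 95% confidence. For ranks and medians a sum under 3 UMIs was set to a floor of 3 UMIs (0.184 CPM in control, 0.235 in CBP-ablated). All intervals cover counting error only. With 1 library a group no test was made. Genes were named when on 1 of 30 lists (666 genes), when a floxed gene, or when among the 15 highest or lowest ratios in all nuclei or in the repeat; the leading genes of Cdc20b nuclei and those beside a cAMP response element were named after their values were seen. The members and lists were chosen with earlier results of these data known, and some genes are not reported here. Coordinates are those of GENCODE M21. The ratio and interval steps were tested on simulated data. Figures were drawn with matplotlib 3.10.9. Alternatives changed scaling, the minimum of UMIs, the nuclei kept and the gate.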

Additional observations from a re-analysis of the deposited data

How the results depend on the processing

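Every alternative below was planned except the removal of nuclei with 3 or more UMIs of 8 myelin genes, which was added after the data were seen. Among values of named genes and list medians past 2-fold, 2620 of 2623 kept their sign over 15 alternatives. These values were picked as past 2-fold in the same counts, most of which each alternative uses again. The kept signs were thus largely fixed beforehand and are a description. The exceptions came when nuclei of the planned myelin list were removed together with the gated ones: Cntn3 then stood at −0.21, against both its value in all nuclei and that in the repeat, and Ugt8a at −0.35. That list holds the widely found Pde4b and takes 46.2% of control and 77.3% of CBP-ablated nuclei. It also holds Ugt8a, whose own UMIs thus helped to choose the nuclei removed.

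Counts of genes past 2-fold moved with the minimum and with the nuclei kept. For all nuclei, 300 or more UMIs gave 227 higher and 281 lower genes and 1 or more UMI in each library gave 1166 and 1184, while for the repeat these were 163 and 173, and 933 and 1035. Thinning to 1500 UMIs, which leaves fewer genes over the minimum, gave 299 lower genes in all nuclei and 170 in the repeat. Removing nuclei of the planned myelin list and the gated ones left 124 higher and 142 lower genes, and removing those of the 8 myelin genes left 136 and 178. Centring, TMM scaling, totals without the 50 largest genes, equal weight of nuclei and nuclei of 1500 UMIs or more each kept the counts within 1.5 times.

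The median of the astrocyte uptake list was −0.42 without both gated and planned myelin nuclei; in the repeat it was −1.001 with 1 UMI in each library, −0.59 after thinning, −0.58 with a looser gate and −0.35 without nuclei of the 8 myelin genes. For the mature myelin list it was 1.99 (1.79 in the repeat) without the 5% deepest nuclei, 0.060 without planned myelin nuclei and 0.71 without nuclei of the 8 genes, which removes the nuclei that hold these RNAs by construction. For the premyelinating list it was 0.93 without the deepest nuclei, 0.19 without planned myelin nuclei, 0.44 without those of the 8 genes and, in the repeat, 0.65 with equal weight. For the OPC list it was −0.12 with equal weight and −0.15 after thinning, and in the repeat −0.39, −0.38 without planned myelin nuclei and −0.27 without those of the 8 genes.

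Differences in shares of nuclei, in percentage points of CBP-ablated minus control, depended on depth. That of the astrocyte list was −26.9 after thinning and −22.3 without it, and that of the myelin list 25.8, 31.1 without thinning and 21.1 at 3000 UMIs. The premyelinating list gave 10.5, 4.04 without thinning, 5.33 with 2 UMIs as the limit and 1.86 at 3000 UMIs. The OPC list gave −2.16, −0.79 with 2 UMIs, −0.71 at 3000 UMIs and 0.81 without thinning, so its sign turned. The cause was not tested. With 1 library a group, depth limits the genes near 100 UMIs and variation between cultures was not measured.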
